A study of Mus musculus with 16 samples.

Results

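The genes described here carry the MHC class I antigen presentation route: the light chain B2m, the classical heavy chains H2-K1 and H2-D1, the peptide transporter genes Tap1 and Tap2, the peptide-loading factor Tapbp (tapasin), the inducible proteasome subunits Psmb8, Psmb9 and Psmb10, and Nlrc5, the transactivator of class I genes. The members were taken by the gene symbol in the platform's annotation. They are 10 of the 16593 genes with a named probe, and they hold 15 of the 25697 probes on the array.

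Transcripts had been measured on 16 Illumina MouseRef-8 v2 arrays, each with total RNA of a mouse alveolar rhabdomyosarcoma (aRMS) tumor culture of the genotype Myf6Cre, Pax3:Foxo1a, p53 conditional. Cells received 10 nM siYFP, which targets the eYFP part of the Pax3:Foxo1a-ires-eYFP messenger RNA (knockdown), or a control siRNA, with 0.2% Lipofectamine2000, and were sorted by Hoechst33342 staining into 2N (G1/G0), 3N (S) and 4N (G2/M) cells. The 2N and 4N groups had 3 arrays each, from experiments 1, 2 and 3, and the 3N groups had 2 each, from experiments 1 and 2. All 6 groups share the tumor genotype, with Cre driven from the muscle regulator gene Myf6, and the activated fusion allele. Only 1 siRNA sequence was used, so effects of the duplex itself and of losing the fusion cannot be told apart. The number of animals behind the culture and the animals' age are not given with the arrays, so p-values cover only the spread between these arrays.

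Class I molecules show peptides from inside the cell to CD8+ T cells and to NK cells. The proteasome cuts proteins into peptides, Tap1 and Tap2 together carry them into the endoplasmic reticulum, and tapasin holds the transporter next to the empty heavy chain and B2m until a peptide binds. Interferons raise most of these genes, through factors such as Irf1 and through Nlrc5, and many tumors hold them low.

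As a check of the labels, the Foxo1 probe was read first, although the sources do not say on which side of the breakpoint it lies. Foxo1 fell by 0.85 (2N), 0.89 (3N) and 0.70 (4N) on the log2 scale (limma adjusted p = 0.000565, 0.00283 and 0.00240), with all 8 knockdown arrays below all 8 control arrays. Between 12535 and 13135 probes were detected per array, and the median signal ranged from 135.6 to 179.6. Myod1 and Pax7, markers of the myogenic lineage, were detected on no array, whereas Des and Chrna1 were detected on all 16. Of 18 immune cell markers with a probe, 13 were detected on no array, among them the pan-leukocyte gene Ptprc and the myeloid genes Tyrobp and Itgam, and all 8 endothelial markers with a probe were detected on none.

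Levels are log2 normalized signals, comparable between arrays for the same probe but not between probes. Differences are knockdown minus control on that scale, with the standard error (SE) and the Benjamini-Hochberg adjusted p of limma's moderated test over 9306 genes, and a gene is said to rise or fall where that p is under 0.05. A probe is called detected where its detection p against the negative control beads is under 0.05, which lay at log2 5.62 to 5.81 depending on the array. Of the 10 members, 9 were detected on at least 3 arrays and entered the test. The Tap1 probe was detected on 0 of 16 arrays. Psmb8 and Nlrc5 passed this filter through knockdown arrays alone, since no control array detected them.

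In 2N cells 8 of the 9 measured members rose and none fell, in a comparison in which 11.2% of all genes rose and 10.7% fell (1042 and 999 genes, or 722 and 1378 with median centring). In 3N cells 6 rose (6.46% of all genes rose and 6.47% fell) and in 4N cells 8 rose (10.1% and 9.85%), again with none lower. Their median difference was 0.67 in 2N, 0.66 in 3N and 0.89 in 4N cells, beside -0.01 over all genes in each. A total of 6 members rose in all 3 gates (5.18% of all genes did), 8 were higher in all 8 pairs of arrays of the same experiment and gate (15.5% of all genes), and 6 had every knockdown array above every control array (6.36%): B2m, H2-D1, Tap2, Psmb9, Psmb10 and Nlrc5. Because Psmb8 and Nlrc5 could pass the filter only by being higher in knockdown cells, the 5 members detected on all 16 arrays give a separate count: 5 rose in 2N, 4 in 3N and 5 in 4N cells, beside 11%, 6.16% and 10.2% of the 7596 genes detected on all 16. When all 16593 genes were tested without a filter, 5, 6 and 9 of the 10 members passed with a higher value (5.89%, 3.34% and 5.17% of all genes), the 4N count including Tap1, whose probe no array detected. In 2N cells the count of 8 dropped to 4 without control array 1, to 4 without knockdown array 2, to 5 without control array 3 and to 5 without knockdown array 3. Within a gate, 7 members had no overlap between the siRNA groups in 2N cells (17.3% of all genes), 9 in 3N cells with their 2 arrays a group (25% of all genes) and 8 in 4N cells (17.8%), the knockdown arrays being higher each time. An F test over the 12 arrays of 2N and 4N cells passed all 9 measured members, and 35.3% of 9146 genes.

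**Figure D1:**
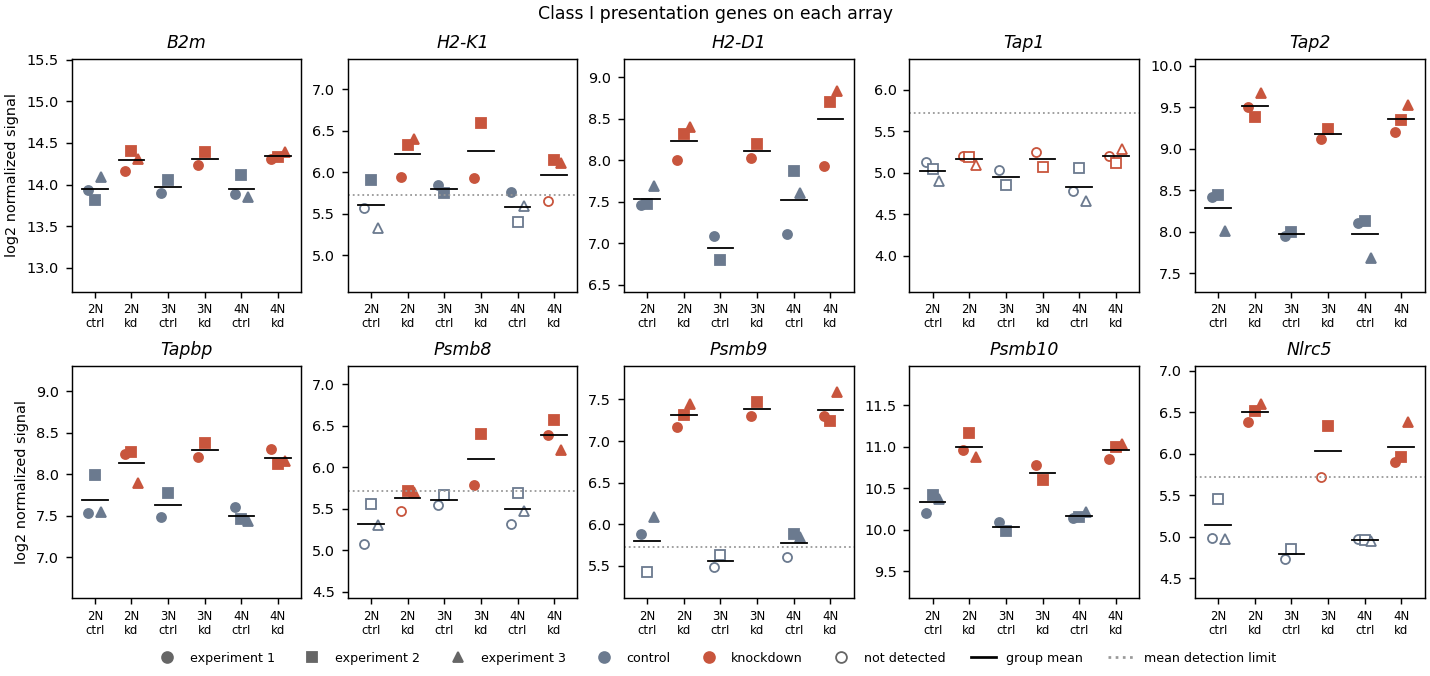
Log2 normalized signal of each member on the 16 arrays, by gate and siRNA (ctrl, control; kd, knockdown). Marker shape gives the experiment, open markers are arrays on which the probe was not detected, black bars are group means and the dotted line is the mean detection limit (log2 5.72). All panels span the same log2 range. For Psmb9 the 8 knockdown arrays lie between 7.17 and 7.59 and the 8 control arrays between 5.42 and 6.09, whereas every Tap1 value lies below the detection limit.

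**Figure D2:**
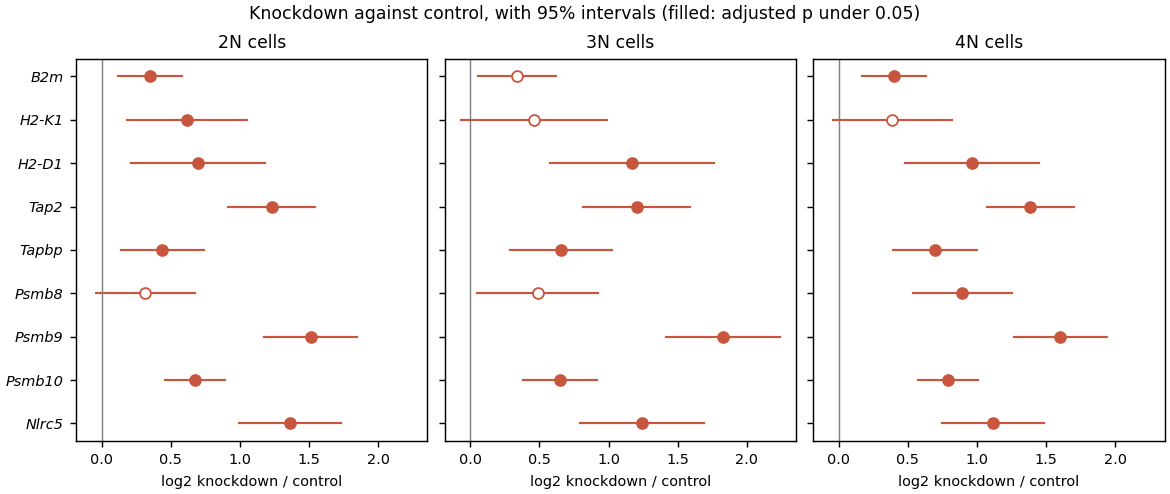
Knockdown minus control for the 9 measured members in 2N, 3N and 4N cells (x axis, log2), with 95% intervals from limma. Filled points have an adjusted p under 0.05. On this background-corrected scale Psmb9 has the largest difference in each gate, and without background correction Tap2 has a larger one than Psmb9. All points lie right of 0.

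B2m, the invariant partner of every classical class I heavy chain, rose in 2N and 4N cells, by less than the other members that rose there. In 2N cells B2m stood at 13.94, 13.81 and 14.09 on the control arrays of experiments 1, 2 and 3 and at 14.17, 14.41 and 14.31 on the knockdown arrays. In 3N cells B2m read 13.89 and 14.05 (control) against 14.23 and 14.40 (knockdown), and in 4N cells 13.88, 14.12 and 13.85 against 14.31, 14.34 and 14.40. The ranges of the siRNA groups did not overlap. The difference was 0.35 (SE 0.11, 1.27-fold, adjusted p = 0.0311) in 2N, 0.34 (SE 0.13, adjusted p = 0.113) in 3N and 0.40 (SE 0.11, 1.32-fold, adjusted p = 0.0177) in 4N cells. The 2N call for B2m was lost without control array 1 (adjusted p = 0.0764), control array 2 (0.106), knockdown array 2 (0.118) or knockdown array 3 (0.0743), and the 4N call without control array 1 (0.0646), control array 3 (0.0710) or knockdown array 3 (0.0559). Median centring ended both calls (2N: 0.24, adjusted p = 0.162; 4N: 0.35, adjusted p = 0.0558). A further B2m probe differed by 0.38, 0.37 and 0.29, and the third was detected on no array.

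The heavy chains form the peptide groove. H2-D1 was detected on every array. In 2N cells H2-D1 stood at 7.46, 7.47 and 7.69 (control) and at 8.0, 8.31 and 8.40 (knockdown). In 3N cells H2-D1 read 7.09 and 6.80 against 8.03 and 8.19, and in 4N cells 7.11, 7.87 and 7.60 against 7.93, 8.71 and 8.84. All 8 knockdown arrays were above all 8 control arrays, although by only 0.06 where the highest control array met the lowest knockdown array, both of them 4N. H2-D1 rose by 0.70 (SE 0.23, 1.62-fold, adjusted p = 0.0393) in 2N, 1.17 (SE 0.28, 2.25-fold, adjusted p = 0.0124) in 3N and 0.97 (SE 0.23, 1.95-fold, adjusted p = 0.00781) in 4N cells. The 2N call for H2-D1 ended without any of 5 of the 6 arrays (control 1, 2 and 3, knockdown 2 and 3; adjusted p 0.0551 to 0.119), with median centring (0.0571), with no filter on dim probes (0.0611) and in a fit that left out the 3N arrays (0.0549), and the 3N call without control array 2 (0.0935) or knockdown array 2 (0.0933).

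H2-K1 lay near the detection limit and was detected on 4 control and 7 knockdown arrays. In 2N cells H2-K1 stood at 5.56, 5.91 and 5.33 (control) and at 5.94, 6.33 and 6.40 (knockdown). In 3N cells H2-K1 read 5.84 and 5.75 against 5.92 and 6.59, and in 4N cells 5.76, 5.39 and 5.59 against 5.65, 6.15 and 6.11. The 4N groups overlapped, and experiment 1 had the 4N knockdown array 0.11 below its control array. H2-K1 rose in 2N cells by 0.62 (SE 0.20, adjusted p = 0.0405), whereas 0.46 (SE 0.25, adjusted p = 0.262) in 3N and 0.39 (SE 0.20, adjusted p = 0.204) in 4N cells did not pass. The 2N call for H2-K1 was lost without control array 1 (adjusted p = 0.0980), knockdown array 2 (0.119), control array 3 (0.153) or knockdown array 3 (0.130), on the authors' normalized values (0.0611), without background correction (0.26, adjusted p = 0.0629) and with no filter on dim probes (0.0623). Its other probe, detected on 3 arrays, differed by 0.43, 0.63 and 0.58, and passed in no gate. Class I heavy chain genes are polymorphic between mouse strains and close in sequence, the strain and the probe positions are not stated, and how far a probe reads a related transcript was not tested.

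The promoters of both heavy chain genes are shown because they carry 2 of the searched elements at the same spacing. The RefSeq promoter table (build GRCm38.p6, 250 bases before to 50 after the start) holds 8 of the 10 members, without Tap2 and Nlrc5. The longest run that H2-K1 and H2-D1 share upstream of their starts is 47 bases, and 148 of 166 aligned bases (89.2%) are identical. The stretches below run from -190 to -25 of H2-K1 (chr17:34000372-34000537, minus strand) and from -250 to -85 of H2-D1 (chr17:35262844-35263009, plus strand), with TTTCNNTTC, a short form of the interferon-stimulated response element (ISRE), and TGACGC, which resembles the X2 element of MHC promoters, in capitals.
H2-K1: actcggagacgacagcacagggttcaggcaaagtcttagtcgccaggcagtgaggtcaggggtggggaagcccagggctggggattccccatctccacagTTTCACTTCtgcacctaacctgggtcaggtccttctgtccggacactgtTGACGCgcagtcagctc
H2-D1: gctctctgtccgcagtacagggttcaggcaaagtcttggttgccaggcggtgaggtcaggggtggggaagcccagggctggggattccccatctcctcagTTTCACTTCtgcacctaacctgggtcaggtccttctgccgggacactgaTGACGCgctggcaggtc
On both strands, TGACGC occurs in 7.4% of 32851 promoter windows and TTTCNNTTC, added to the search after these sequences had been read, in 7.52%. A match of letters is a description and not a binding site.

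The B2m window is shown for 2 matches next to each other. B2m is shown from -160 to -61 (chr2:122147527-122147626, plus strand). The first capitals are the ISRE (TTTC and TTTC with any pair of bases between them, here on the opposite strand, at -139 to -130), and the second a kappaB-like match (GGGA and TTCC with any pair of bases between, opposite strand, at -126 to -117).
B2m: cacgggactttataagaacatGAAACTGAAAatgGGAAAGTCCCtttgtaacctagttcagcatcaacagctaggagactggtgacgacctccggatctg
The ISRE letters occur in 3.44% of the windows and the kappaB-like letters in 1.47%. B2m is the only member that matches either of these 2 strings. Other forms of a kappaB site were not searched. The letters ggggattcccc, present in both heavy chain stretches above, do not match the kappaB-like string. The cyclic AMP element TGACGTCA (1.79% of windows) is in none of the 8 member windows.

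Tap2 encodes the subunit that pairs with Tap1 to form the peptide pump. In 2N cells Tap2 stood at 8.41, 8.44 and 8.0 (control) and at 9.50, 9.38 and 9.67 (knockdown). In 3N cells Tap2 read 7.95 and 8.0 against 9.12 and 9.23, and in 4N cells 8.10, 8.13 and 7.69 against 9.20, 9.35 and 9.53. Every knockdown array lay at 9.12 or higher and every control array at 8.44 or lower. Tap2 rose by 1.23 (SE 0.15, 2.35-fold, adjusted p = 5.33e-05) in 2N, 1.2 (SE 0.18, 2.30-fold, adjusted p = 0.000557) in 3N and 1.39 (SE 0.15, 2.61-fold, adjusted p = 1.82e-05) in 4N cells. The Tap1 probe was below the detection limit on every array, so no level, difference or fold is given for Tap1.

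Tapasin, the product of Tapbp, bridges the transporter and the heavy chain. In 2N cells Tapbp stood at 7.54, 7.99 and 7.55 (control) and at 8.24, 8.26 and 7.89 (knockdown). In 3N cells Tapbp read 7.49 and 7.78 against 8.21 and 8.38, and in 4N cells 7.60, 7.46 and 7.44 against 8.30, 8.13 and 8.16. The 2N ranges overlapped and the others did not. Tapbp rose by 0.44 (SE 0.14, adjusted p = 0.0379) in 2N, 0.66 (SE 0.17, adjusted p = 0.0215) in 3N and 0.70 (SE 0.14, adjusted p = 0.00307) in 4N cells. Its other probe, annotated to another RefSeq transcript, differed by 0.25, 0.23 and 0.41 with no call (adjusted p = 0.315, 0.542 and 0.0941 over 13052 probes), and with the mean of both probes Tapbp rose in 4N cells alone. The 2N call for Tapbp was also lost with median centring (0.0899), with no filter on dim probes (0.0535) and without control array 1 (adjusted p = 0.135), control array 3 (0.132), knockdown array 1 (0.120) or knockdown array 2 (0.131), and the 3N call without control array 1 (0.155), knockdown array 1 (0.0548) or knockdown array 2 (0.155).

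The inducible proteasome subunits replace the constitutive catalytic subunits in newly built particles: Psmb8 replaces Psmb5, Psmb9 replaces Psmb6 and Psmb10 replaces Psmb7. Psmb9 rose in every gate. In 2N cells Psmb9 stood at 5.88, 5.42 and 6.09 (control) and at 7.17, 7.32 and 7.45 (knockdown). In 3N cells Psmb9 read 5.48 and 5.63 against 7.30 and 7.47, and in 4N cells 5.60, 5.88 and 5.85 against 7.31, 7.24 and 7.59. Control cells lay around the detection limit, with 4 of 8 arrays detected, and all 8 knockdown arrays were more than 1.08 above the highest control array. Psmb9 rose by 1.51 (SE 0.16, 2.85-fold, adjusted p = 1.79e-05) in 2N, by 1.83 (SE 0.19, adjusted p = 3.47e-05) in 3N, where no control array detected it, and by 1.6 (SE 0.16, 3.04-fold, adjusted p = 9.66e-06) in 4N cells. In 3N cells Psmb9 was at least 3.13-fold above control cells set at the detection limit, a bound that holds on the background-corrected scale alone. Without background correction the Psmb9 differences were 0.74, 0.89 and 0.80, each still past the threshold.

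Psmb10, the inducible trypsin-like subunit, was detected on every array. In 2N cells Psmb10 stood at 10.20, 10.42 and 10.36 (control) and at 10.96, 11.17 and 10.87 (knockdown). In 3N cells Psmb10 read 10.09 and 9.98 against 10.78 and 10.59, and in 4N cells 10.14, 10.15 and 10.21 against 10.85, 10.99 and 11.03. No control array reached the lowest knockdown array. Psmb10 rose by 0.67 (SE 0.10, 1.6-fold, adjusted p = 0.000349) in 2N, 0.65 (SE 0.12, 1.57-fold, adjusted p = 0.00327) in 3N and 0.79 (SE 0.10, 1.73-fold, adjusted p = 0.000103) in 4N cells. Its other probe rose by 0.76, 0.85 and 0.79.

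Psmb8 was detected on 0 of 8 control and 7 of 8 knockdown arrays. In 2N cells Psmb8 stood at 5.08, 5.56 and 5.30 (control) and at 5.47, 5.72 and 5.70 (knockdown). In 3N cells Psmb8 read 5.55 and 5.67 against 5.79 and 6.40, and in 4N cells 5.32, 5.69 and 5.48 against 6.40, 6.57 and 6.20. The 2N groups overlapped and the 4N groups stood 0.51 apart. Psmb8 rose in 4N cells by 0.89 (SE 0.17, adjusted p = 0.00177), at least 1.57-fold on the background-corrected scale with control cells set at the detection limit. Without background correction the Psmb8 difference was 0.38 (adjusted p = 0.00536). The 3N difference of 0.49 (SE 0.20, adjusted p = 0.141) and the 2N difference of 0.32 (SE 0.17, adjusted p = 0.202) did not pass, but both did with the experiment as a replicate block (adjusted p = 0.0229 and 0.0467), and the 3N difference passed without knockdown array 1 (0.79, adjusted p = 0.0393).

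**Figure D3:**
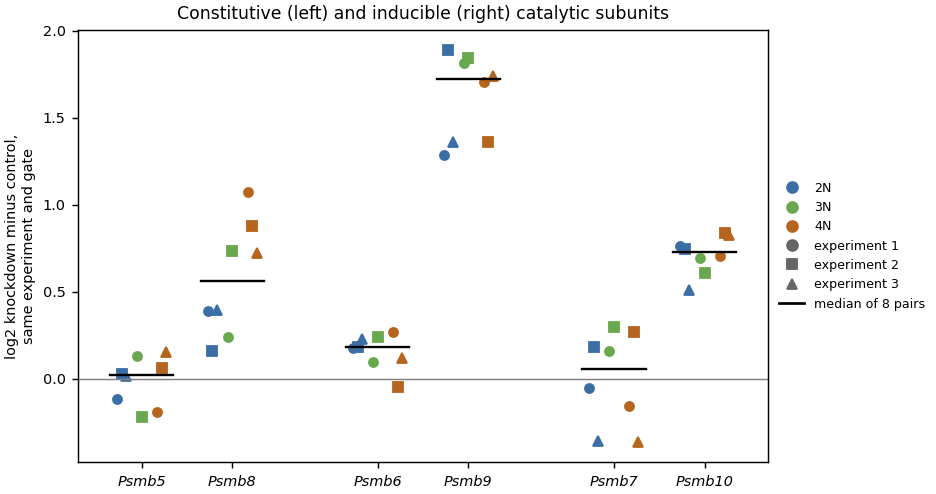
Knockdown minus control in each of the 8 pairs of arrays of the same experiment and gate (y axis, log2) for the constitutive catalytic subunits Psmb5, Psmb6 and Psmb7, each beside the inducible subunit that replaces it. Colour gives the gate, marker shape the experiment and the black bar the median of the pairs. The 8 Psmb9 pairs lie between 1.29 and 1.89, the Psmb5 and Psmb7 pairs lie on both sides of 0, and 7 of the 8 Psmb6 pairs lie above 0.

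None of the 3 constitutive catalytic subunits passed the test. Psmb5, the chymotrypsin-like subunit, differed by -0.02, -0.04 and 0.01 in 2N, 3N and 4N cells, Psmb6 by 0.20, 0.17 and 0.12, and Psmb7 by -0.07, 0.23 and -0.08 (lowest adjusted p = 0.223). Of 12 measured genes of the constitutive 20S particle, none rose and 1 fell in each gate (10.7%, 6.47% and 9.85% of all genes fell). It was the alpha ring gene Psma7, which fell by 0.91, 0.93 and 1.02. The PA28 activator genes Psme1 and Psme2, whose products cap the particle and are themselves induced by interferon gamma, had every knockdown array above every control array. Psme2 rose in 2N cells (0.51, SE 0.13, adjusted p = 0.0122) but not with median centring (0.0621). Psme1 rose in 4N cells (0.49, SE 0.15, adjusted p = 0.0357), a call lost without any of 4 of the 6 arrays (control 2 and 3, knockdown 1 and 2; up to 0.125). The Psme1 call was also lost with median centring and with no filter on dim probes (up to 0.146). Of the assembly chaperone genes, Psmg1 fell by 0.31 in 2N and 0.33 in 4N cells (adjusted p = 0.0401 and 0.0354), calls that ended without 5 and 6 of the 6 arrays (up to 0.142). Psmg3 rose in 4N cells by 0.34 (adjusted p = 0.0154), which ended without knockdown array 1 or control array 3 (up to 0.0677).

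Psmb9 and Tap1 lie head to head on chromosome 17, and the genes follow each other in the order Psmb9, Tap1, Psmb8 and Tap2. The 225 bases between the RefSeq starts of Psmb9 and Tap1 are shown because one stretch faces both genes while only the Psmb9 probe was detected (chr17:34187331-34187555, read on the minus strand toward Psmb9). The capitals mark CCAATCAG, a box of the kind bound by NF-Y, on the opposite strand.
Psmb9-Tap1: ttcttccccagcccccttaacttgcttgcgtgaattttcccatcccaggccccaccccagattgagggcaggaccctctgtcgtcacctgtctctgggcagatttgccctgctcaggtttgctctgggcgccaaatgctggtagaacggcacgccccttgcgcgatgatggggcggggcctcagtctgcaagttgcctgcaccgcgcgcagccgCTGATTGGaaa
The box lies at -11 to -4 of Psmb9 and at -222 to -215 of Tap1. It was added to the search after the sequences had been read, is in 4.1% of the windows, and is also in those of H2-K1 and H2-D1. Neither the ISRE nor TTCNNNGAA, the interferon gamma-activated site (GAS), matched between these starts. The GAS is in 8.3% of windows and in Psmb8 alone among the members, at -97 to -89, shown in capitals within -120 to -61 (chr17:34198075-34198134, plus strand).
Psmb8: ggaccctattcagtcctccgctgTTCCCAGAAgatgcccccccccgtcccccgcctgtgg
Tapbp and Psmb10, which rose, held none of the 7 motifs in their windows.

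**Figure D4:**
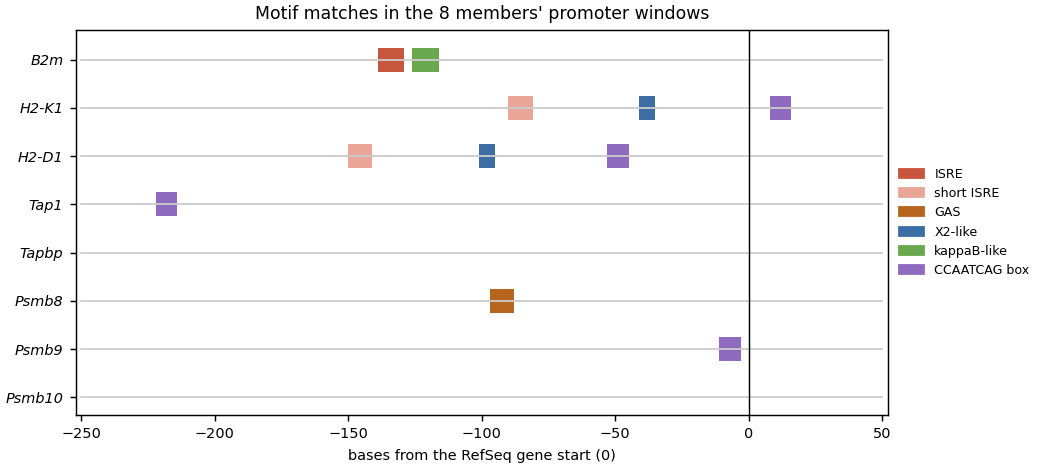
Matches to the searched motifs in the RefSeq promoter windows of 8 members (x axis, bases from the gene start; for H2-K1 the first of its 2 windows). Each block is a match on either strand, drawn to scale. H2-K1 and H2-D1 carry a short ISRE, an X2-like match and a CCAATCAG box in the same order, and Tapbp and Psmb10 have no block.

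Nlrc5, the transactivator that binds class I promoters through the RFX complex, was detected on 0 of 8 control and 7 of 8 knockdown arrays. In 2N cells Nlrc5 stood at 4.98, 5.46 and 4.97 (control) and at 6.39, 6.52 and 6.59 (knockdown). In 3N cells Nlrc5 read 4.73 and 4.85 against 5.72 and 6.34, and in 4N cells 4.97, 4.96 and 4.95 against 5.90, 5.96 and 6.38. The lowest knockdown array, at 5.72, was above the highest control array, at 5.46. Nlrc5 rose by at least 1.68-fold in 2N (log2 difference 1.36, SE 0.17, adjusted p = 8.54e-05), 1.22-fold in 3N (1.24, SE 0.21, adjusted p = 0.00144) and 1.27-fold in 4N cells (1.12, SE 0.17, adjusted p = 0.000399), where the bounds set control cells at the detection limit and hold on the background-corrected scale alone. Without background correction the Nlrc5 differences were 0.62, 0.67 and 0.53, each past the threshold.

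Among 17 measured regulators of class I transcription, 3 rose and 3 fell in 2N cells, 2 rose and 2 fell in 3N cells, and 2 rose and 1 fell in 4N cells. Of all genes, 11.2%, 6.46% and 10.1% rose in these gates and 10.7%, 6.47% and 9.85% fell. Irf1, a direct activator of class I, Tap1 and Psmb9 genes, rose by 1.35 (SE 0.13, adjusted p = 1.12e-05), 1.68 (SE 0.16, adjusted p = 2e-05) and 1.44 (SE 0.13, adjusted p = 5.55e-06), from 10.18 to 10.73 on the 8 control arrays to 11.73 to 12.02 on the knockdown arrays. Irf9, the DNA-binding part of the type I interferon complex ISGF3, rose by 0.67, 0.67 and 0.58 (adjusted p = 0.000229, 0.00178 and 0.000775). Stat3 rose in 2N cells alone (0.43, adjusted p = 0.0220), a call lost with median centring and without control array 1, knockdown array 1 or control array 3 (adjusted p 0.0517 to 0.150).

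Single members of the complexes that sit on class I promoters were among those that fell, none of them in every gate. The other measured subunits, Rfxank of RFX and Nfyb and Nfyc of NF-Y, passed in no gate. Rfxap, a subunit of the RFX complex, fell by 0.40 in 2N and 0.56 in 3N cells (adjusted p = 0.0429 and 0.0337) and differed by -0.36 in 4N cells (adjusted p = 0.0705). The Rfxap calls ended without any of 4 of the 6 arrays in 2N (control 1, 2 and 3, knockdown 2; up to 0.187), and of 3 of the 4 in 3N cells (control 1 and 2, knockdown 2; up to 0.301). Nfya, a subunit of NF-Y, fell in 2N cells by 0.68 (adjusted p = 0.000900) and differed by -0.36 and -0.15 elsewhere. Creb1, a factor of the X2 element, fell in 3N cells by 0.68 (adjusted p = 0.0496), a call that ended without any of the 4 arrays (0.0805 to 0.231). It also ended under 5 other settings (0.0620 to 0.463), among them the authors' normalized values and the mean of the gene's probes. Irf8, an interferon regulatory factor best known from myeloid and B cells, fell by 0.77 in 2N and 0.74 in 4N cells (adjusted p = 0.0308 and 0.0385), but not without any of 4 arrays in 2N (control 1 and 3, knockdown 1 and 3; up to 0.123) or 4 in 4N cells (control 1 and 3, knockdown 2 and 3; up to 0.121). The probe of Rfx5, the DNA-binding RFX subunit, did not pass the detection filter.

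**Figure D5:**
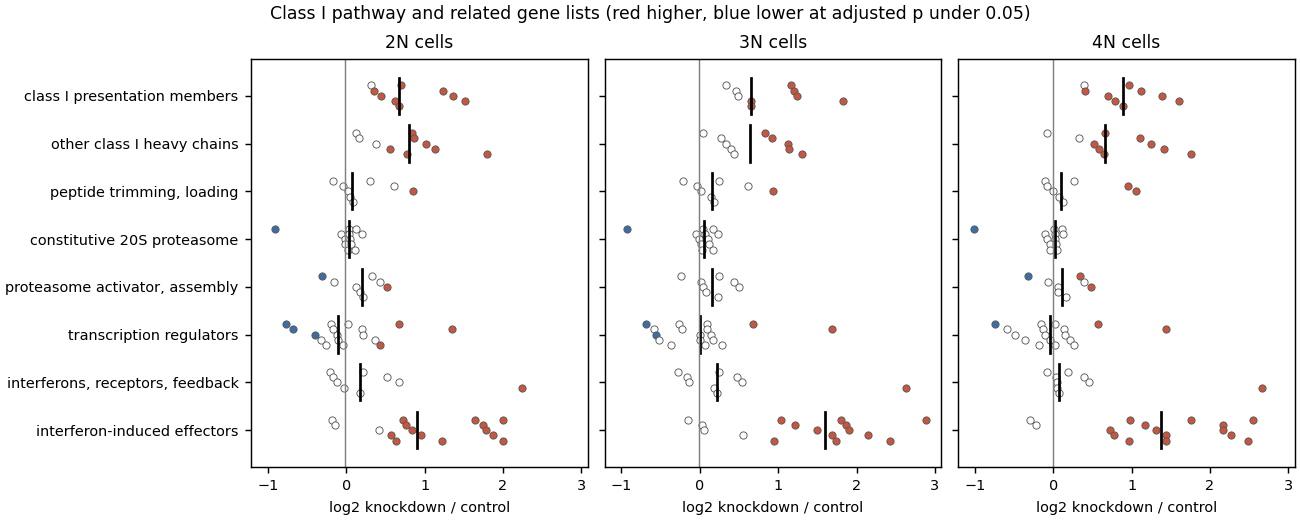
Knockdown minus control (x axis, log2) of every measured gene in 8 lists of the class I route and related genes, in 2N, 3N and 4N cells. Red points rose and blue points fell (adjusted p under 0.05), black bars are list medians and the grey line is the median of all genes. The effector list has medians of 0.90, 1.6 and 1.37, and the constitutive proteasome medians lie between 0.02 and 0.05.

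Other class I and class I-like heavy chain genes also rose. Of 20 with a probe, 10 passed the detection filter. Of these 10, 7 rose in 2N, 5 in 3N and 8 in 4N cells (11.2%, 6.46% and 10.1% of all genes rose). None fell, and the medians were 0.80, 0.63 and 0.66. Cd1d1, which presents lipids to NKT cells, rose by 1.80, 1.3 and 1.76 (adjusted p = 2.37e-05, 0.00235 and 2.55e-05). H2-Q7, a nonclassical class Ib gene, rose by 1.13, 1.13 and 1.25 (adjusted p = 0.000506, 0.00381 and 0.000244). Its relative H2-Q8 rose by 0.84, 0.92 and 1.41, of which the 3N call ended without knockdown array 2 (adjusted p = 0.0506). Mr1, which presents vitamin B metabolites, rose by 1.14 in 3N and 0.65 in 4N cells (adjusted p = 0.00723 and 0.0373) and differed by 0.38 in 2N cells. The Mr1 call ended in 3N cells without control array 2 (0.0863) or knockdown array 2 (0.0851), and in 4N cells without any 1 of the 6 arrays (0.0556 to 0.122).

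Of 8 measured chaperone and peptidase genes that act between the proteasome and the heavy chain, 1 rose in 2N, 1 in 3N and 2 in 4N cells. Of all genes, 11.2%, 6.46% and 10.1% rose. Tapbpl, the tapasin relative that edits peptides, rose by 0.85, 0.94 and 1.06 (adjusted p = 0.000686, 0.00262 and 0.000134). Erap1, the aminopeptidase that trims peptides in the endoplasmic reticulum, rose in 4N cells by 0.96 (adjusted p = 0.0285) and differed by 0.61 in 2N and 0.61 in 3N cells. That Erap1 call ended without control array 1 or any of the 3 knockdown arrays (0.0568 to 0.114).

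Of 9 measured genes for interferons, their receptors and their feedback inhibitors, 1 rose in each gate (11.2%, 6.46% and 10.1% of all genes rose). It was Usp18, which shuts off type I interferon signalling and is itself induced by it, with differences of 2.24, 2.63 and 2.67 (adjusted p = 1.03e-06, 2.33e-06 and 1.46e-07). Of 25 interferon-induced effector genes with a probe, 16 passed the detection filter. Of these 16, 13 rose in 2N, 12 in 3N and 14 in 4N cells (11.2%, 6.46% and 10.1% of all genes rose). The guanylate-binding protein gene Gbp2 rose by 2.00, 2.88 and 2.55 and the antiviral gene Rsad2 by 1.87, 2.42 and 2.49. Igtp and Parp14 were detected on no control array and on all 8 knockdown arrays, so they passed the filter through knockdown arrays alone. Both rose in all 3 gates. Igtp read 5.02 to 5.66 on control and 6.80 to 7.33 on knockdown arrays, and Parp14 4.80 to 5.50 and 6.85 to 7.41. The Ifnb1 and Ifng probes did not pass the detection filter.

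Some markers of other cell types moved at the same time, in comparisons where 11.2% (2N), 6.46% (3N) and 10.1% (4N) of all genes rose. In the same order, 10.7%, 6.47% and 9.85% of all genes fell. Of 18 immune cell markers with a probe, 4 were measured, and 2 of these rose in each gate. Cd3d, Cd4, Cd8a and Lyz2 were detected on no array. Lyz1, a lysozyme gene, and Cd3e, a T cell receptor subunit gene, rose in all 3 gates, at levels near the detection limit (highest value 6.23 for Lyz1 and 6.35 for Cd3e). On control arrays both lay below the limit of each array (highest value 5.32 and 5.70), so they passed the filter through knockdown arrays alone. The Cd3e calls in 2N and 3N cells each ended without 4 single arrays (adjusted p up to 0.214) and also without background correction. The summed signal of the 18 immune markers was 611.9 to 681.5 on control and 680.5 to 753.8 on knockdown arrays. Of 6 measured fibroblast markers, 3 rose in 2N, 4 in 3N and 4 in 4N cells, and 1 fell in each, and the summed signal of 9 was 2293 to 3371 against 3905 to 5397. The medians of the 6 fibroblast markers were 0.90, 0.91 and 0.91. Among those that rose, Pdgfrb, a receptor of pericytes and fibroblasts, was higher by 1.83, 1.45 and 1.37, and the collagen gene Col3a1 by 1.13, 0.83 and 0.93. The 3N call for Col3a1 ended without any of the 4 arrays (adjusted p 0.0818 to 0.258) and with no filter on dim probes (0.0720). That for Pdgfrb ended without knockdown array 1 (0.0792). The marker Dcn, which rose in 3N cells, read 4.70 to 4.99 on control arrays, below the detection limit of each. Dcn therefore passed the filter through knockdown arrays alone. Of 6 measured myogenic markers, 2 rose and 1 fell in 2N and in 4N cells, and 1 rose and 0 fell in 3N cells. Their medians were 0.24, -0.12 and -0.04. The muscle actin Acta1 was higher by 2.74, 3.07 and 2.80. The gene that fell was Chrna1, lower in all 8 pairs of arrays. Its 4N call ended without any of 4 of the 6 arrays (adjusted p up to 0.117), and its 2N call with the mean of its probes (0.0526). Whether the cell composition had a part in the members' differences was not tested, and in sorted bulk RNA a change in the number of cells of a type and in RNA per cell cannot be told apart.

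The members were next compared between cells of different DNA content. Between control 4N and 2N cells 0 of the 9 measured members passed (3.32% of all genes rose and 2.2% fell; 0 members at an unadjusted p under 0.05), and between control 3N and 2N cells 0 (3.27% and 1.55%; 2 members unadjusted). Between knockdown 3N and 2N cells 0 passed (3.77% and 2.33%; 3 unadjusted), and between knockdown 4N and 2N cells 1 rose (3.72%) and 0 fell (2.21%). It was Psmb8, higher in 4N by 0.76 (SE 0.17, 1.69-fold, adjusted p = 0.0143), with 4N knockdown arrays at 6.20 to 6.57 and 2N knockdown arrays at 5.47 to 5.72. The Psmb8 call ended without the 2N knockdown array 1 (0.68, adjusted p = 0.0676) or the 4N knockdown array 2 (0.67, adjusted p = 0.0681). In 3N knockdown cells Psmb8 was 0.47 above 2N (SE 0.19, adjusted p = 0.185), which passed with the replicate block (0.45, adjusted p = 0.0389).

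No other member passed in these comparisons. Nlrc5 differed by -0.42 (95% interval -0.79 to -0.05, adjusted p = 0.194) between knockdown 4N and 2N cells and was lower in 3 of 3 experiments. Psmb10 differed by -0.31 (95% interval -0.56 to -0.07, adjusted p = 0.139) between knockdown 3N and 2N cells. For Psmb9 the 4N minus 2N difference in knockdown cells was 0.07 (95% interval -0.27 to 0.40), for B2m 0.05 (-0.18 to 0.28), for Tap2 -0.16 (-0.47 to 0.16) and for H2-D1 0.26 (-0.23 to 0.74).

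The knockdown effect itself was compared between gates by an interaction term. It passed for 0 members and 0 of all 9306 genes between 4N and 2N cells (308 genes at an unadjusted p under 0.05), and likewise between 3N and 2N cells (353 genes). The largest member value was Psmb8, whose knockdown effect was 0.58 larger in 4N than in 2N cells (95% interval 0.07 to 1.08, adjusted p = 0.9999). Psmb9 differed between these gates by 0.09 (-0.38 to 0.56), Tap2 by 0.15 (-0.29 to 0.60) and Nlrc5 by -0.25 (-0.77 to 0.27).

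The members followed each other over the 16 arrays. Against the mean of the other measured members, Pearson's r was 0.95 for Tap2, 0.95 for Psmb9, 0.94 for Nlrc5, 0.92 for Psmb10 and 0.90 for B2m, and it was lowest for H2-K1 (0.72) and Psmb8 (0.66). These values describe 16 arrays that share the contrast of knockdown and control, and are not a test. Of 9297 genes outside the members, 264 had an r over 0.9 with the members' mean. The most alike were Cyp4v3 (0.983), a fatty acid hydroxylase gene, Gbp2 (0.983), the muscle enolase gene Eno3 (0.980), the TGF-beta receptor gene Tgfbr2 (0.977) and the kinase gene Nuak1 (0.977), which differed by 1.12, 2.00, 1.29, 0.96 and 1.6 in 2N cells.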

How the data were processed

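The deposited signals are GenomeStudio probe means, an intensity that had not been normalized or logged, with a detection value per probe, a fraction equal to 1 minus the detection p. The authors' normalized values, an intensity as well, match quantile normalization of these signals to within 0.0358 on the log2 scale. Signals were background corrected with the normexp model (limma 3.58.1, R 4.3.3; offset 16), taken to log2 and quantile normalized over 16 arrays. Probes detected on at least 3 arrays were kept (13052), and the brightest probe stood for a gene (9306 genes). Contrasts came from a linear model of 6 group means with empirical Bayes variances (degrees of freedom 10 residual, 3.90 prior), an adjusted p threshold of 0.05 and, for groups detected on no array, bounds against the detection limit. The test was checked on simulated data. Experiment numbers in the labels mark shared experiments: deviations from group means correlated with a median r of 0.27 (0.02 to 0.52; 31 of 36 pairs over 0.1) within an experiment and -0.16 between experiments, so a fit with the experiment as a replicate block was run beside the one without it. Alternatives changed background correction, normalization, filter, probe choice, variance trend, block and the arrays in the fit. The text names all members, and up to 4 called genes of each related list (all that passed for regulators and interferon genes). The members and lists were chosen with earlier results of these data known. The genome build of the probes is not stated, and sequences are those of RefSeq (GRCm38.p6). Promoters were searched for 5 listed motifs and 2 added ones, and Tap2 and Nlrc5 were not in the table.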

Additional observations from a re-analysis of the deposited data

How the results depend on the processing

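Tap2, Psmb9, Psmb10 and Nlrc5 stayed past the threshold in each gate under every other setting that gives the comparison (10 in 2N and 4N cells, 9 in 3N cells, which the fit on 12 arrays leaves out) and without each single array. In 2N cells the number of members that rose went from 8 to 5 with median centring and to 5 with no filter on dim probes, and ranged from 4 to 7 when 1 array was left out. Median centring moved the median of all genes in 2N cells to -0.11 and the split of calls from 1042 higher and 999 lower to 722 and 1378 (3N: 475 and 690 in place of 601 and 602). With the experiment as a replicate block the members that rose were 9 in 2N, 7 in 3N and 8 in 4N cells and 1 between knockdown 3N and 2N cells (0 without the block), and Psmb8 made each of these differences. In 3N cells 915 genes were then higher and 937 lower, over 1.5 times the calls without the block, and in 2N cells 1392 and 1364. The call between knockdown 4N and 2N cells ranged from 0 to 1 when 1 array was left out. For H2-DMa in 3N cells the difference ranged from -0.0199 (without knockdown array 1) to 0.57. No member fell in any knockdown comparison under these settings or without any 1 array. With 2 or 3 arrays a group and levels of H2-K1, Psmb8, Psmb9 and Nlrc5 at or near the detection limit in control cells, fold changes of these genes depend on the background correction: without it the Psmb9 difference in 2N cells was 0.74 in place of 1.51 and that of Nlrc5 0.62 in place of 1.36.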

Other observations

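Class II genes, which present peptides from outside the cell, were mostly below detection: 11 have a probe and 2 were measured. H2-DMa, part of the factor that exchanges class II peptides, rose in 2N cells by 0.90 (SE 0.22, limma adjusted p = 0.00828) and differed by 0.27 in 3N and 0.36 in 4N cells. Of 5 measured immune ligand genes 0 rose and 1 fell in each gate (10.7%, 6.47% and 9.85% of all genes fell in 2N, 3N and 4N cells). It was Nectin2, a nectin adhesion gene, which fell by 1.63, 1.52 and 1.78, with all 8 knockdown arrays (8.50 to 9.13) below all 8 control arrays (10.33 to 10.87). Cd274, which encodes the T cell inhibitor PD-L1, differed by 0.36 in 4N cells without passing the threshold.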
